A study of Danio rerio with 3 samples.

Results

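Chaperones are the proteins that fold other proteins, and the genes that encode them and the small heat shock proteins were followed here along the length of the zebrafish heart. The members were taken by name: every gene row whose symbol begins with hsp, dnaj, cct and a digit, tcp1 or unc45, with at least 10 reads over 3 hearts. The rule found 75 rows among 16023 gene rows, of which 12905 carry a symbol, and 71 of the 75 had at least 10 reads. The other 4 were hspa1b with 8 reads, TCP11L1 with 7, dnajb1b with 5 and hsp70.1 with 0. Of the 71 members, 53 are printed in capitals, which marks the symbol of the matching human gene. The row called hspb9l here is the gene that the study calls hspb11; its profile in heart 1 is identical to the study's hspb11 profile, and another, nearly silent member carries the symbol hspb11 in the name table. 5 symbols stand for a pair of rows each, so these are given with their gene IDs. The prefix also takes in HSPG2, the basement membrane proteoglycan perlecan, and TCP11L2, which are no chaperones and are kept as a group of their own.

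The data come from tomo-seq, in which a tissue is cut into thin sections and the RNA of each section is sequenced with its own barcode. 3 hearts of untreated wild-type zebrafish (the TL strain, no transgene or mutation named) were dissected by hand at 2 days post fertilization (48 hours), straightened, and cut into 10 µm sections, giving 40 sections of heart 1, 48 of heart 2 and 29 of heart 3. Each heart is 1 animal, so n = 3 in every comparison, and all regions of a heart share that animal. Sections were grouped on the scale of heart 1 into the outflow tract (sections 4 to 10), ventricle (12 to 22), atrioventricular (AV) canal (19 to 26), atrium (27 to 37) and sinoatrial region (33 to 39). The AV canal shares sections with the ventricle, and the sinoatrial region with the atrium.

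Hearts 1, 2 and 3 held 5889097, 5243516 and 2590278 gene reads, and their sections between 190 and 1106493. A level below is the number of reads of a gene per 10000 gene reads of that region, and it is compared only between regions, not between genes. The outflow tract of heart 3 held only 14700 reads and its sinoatrial region 57203, against at least 213385 in the other regions of the 3 hearts. That outflow window also goes against its label. The 10 heart muscle genes checked (such as myl7 and tnnt2a) summed to 741 reads per 10000 there, against 9.68 in heart 1 and 3.53 in heart 2, and vmhc, the ventricular myosin, stood at 133 against 1.87 and 0.252. The outflow tract is therefore given with and without heart 3. In the ventricle the muscle list summed to 301, 317 and 412 in hearts 1, 2 and 3, and in the atrium to 201, 249 and 421. In bulk sections such as these, fewer cells of a type and less RNA per cell cannot be told apart.

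The families divide the work of folding. HSP90 proteins, among them the cytosolic HSP90AB1 and HSP90AA1, finish the folding of signalling proteins and, in skeletal muscle of zebrafish, hsp90aa1.1 acts with Unc45b on the myosin head. HSP70 proteins bind short exposed stretches of unfolded protein, and J-domain proteins (DNAJ) deliver clients to them. TRiC is a closed ring that folds actin and tubulin, HSPD1 and HSPE1 form the barrel and the lid of the corresponding ring in mitochondria, and small heat shock proteins hold unfolding proteins, in muscle often at the sarcomere, without using ATP.

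Together the 71 members took 0.874%, 1.07% and 0.835% of the gene reads of hearts 1, 2 and 3, or 129218 reads. HSP90AB1 alone held 49454 of these, and with HSPA8, the constitutive cytosolic HSP70, it made up 56.4%. By family, the 4 HSP90 rows held 41.3% of the members' reads, 10 HSP70 and HSP110 rows 21.6%, 7 TRiC rows 15.5%, 7 small heat shock protein rows 8.14%, the 2 mitochondrial chaperonin rows 6.18%, 38 J-domain rows 6.13% and UNC45B 0.467%. The spread was wide, with 16 members at 1000 reads or more and 56 at 100 or more. Reads of the sparser members were clumped: in hearts 1, 2 and 3, 18 of 69, 16 of 69 and 30 of 56 members with reads had at least 50% of them in a single section.

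The families were not placed alike along the heart. The summed level of the small heat shock proteins was 15.5, 21.1 and 15.6 reads per 10000 in the ventricle of hearts 1, 2 and 3, against 3.55, 12.2 and 4.81 in the atrium. Outflow levels were 0.474 in heart 1, 0.318 in heart 2 and 25.2 in heart 3, so that heart 3 went against the other two. The ventricle was 4.37, 1.73 and 3.25 times the atrium in the 3 hearts, and the ranges of the 2 chambers did not overlap. The mitochondrial chaperonin lay the same way, with 6.77, 12.2 and 10.2 in the ventricle and 1.78, 2.91 and 5.39 in the atrium, and 2.74, 5.99 and 0 in the outflow tract.

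The summed levels of HSP90 and TRiC lay the other way in hearts 1 and 2. Most of the HSP90 sum was HSP90AB1, with 58.5 and 50.96 in the outflow tract of these hearts. HSP90 rows summed to 63.7 and 54.02 reads per 10000 in the outflow tract of hearts 1 and 2, against 27.5 and 24.9 in the ventricle, which is 2.32 and 2.17 times the ventricle. TRiC rows summed to 17.01 and 21.997 in the outflow tract of these hearts and to 8.995 and 13.4 in the ventricle. With the single most-read gene row left out of the totals, both differences were smaller in proportion. HSP90 then stood at 89.4 and 69.7 against 46.2 and 37.9, and TRiC at 23.9 and 28.4 against 15.1 and 20.4. In heart 3 the outflow window had no HSP90 read among its 14700, which allows a level of up to 2.04 per 10000, while its TRiC level of 34.01 included 31.3 from CCT6B. Between the chambers HSP90 ranged over 24.9 to 28.4 in the ventricle and 19.1 to 29.8 in the atrium, and the ranges overlapped. HSP70 and HSP110 rows were even outside the outflow tract, at 15.3 to 19.7 in the ventricle, 15.9 to 20.3 in the AV canal, 14.5 to 19.96 in the atrium and 12.1 to 19.3 in the sinoatrial region. The 38 J-domain rows summed to 5.97, 6.05 and 6.09 in the ventricle of the 3 hearts and to 4.07, 6.33 and 10.5 in the atrium.

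**Figure D1:**
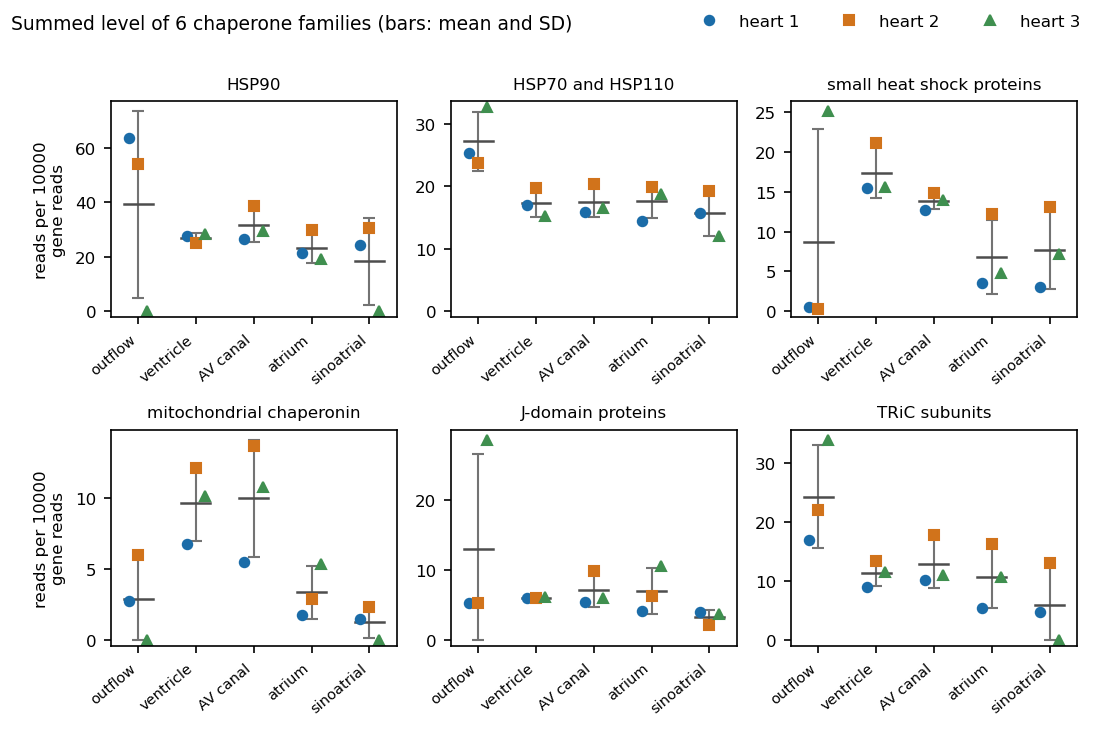
Summed level of 6 chaperone families (y axis, reads per 10000 gene reads) in the 5 regions (x axis, outflow end to inflow end) of hearts 1 to 3; horizontal lines are means and bars 1 SD over 3 hearts, cut at 0. The sums of the small heat shock proteins (in the chambers mostly HSPB1) and of the mitochondrial chaperonin are higher in the ventricle than in the atrium in each heart. HSP90 reaches 63.7 and 54.02 in the outflow tract of both deeper hearts, with 0 in heart 3.

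The ventricle against the atrium asks which chaperones separate the 2 chambers. 60 members had enough reads to be tested (10 reads over the comparison and reads in 2 hearts), with limma on precision-weighted log2 values (reads scaled to the total of each region sum) and the heart as a block. Of them 1, hspb9l, was higher in the ventricle at an adjusted p under 0.05 and 0 were lower, while over all 8329 genes tested 0.276% were higher and 0.336% lower. Without adjustment, 7 members were higher at p under 0.05 (4.21% of all genes) and 1 was lower (3.52% of all genes). The median log2 fold change was 0.37 over the 60 members and 0.14 over all genes. With TMM scaling, which evens out a few dominant genes, 3 members were higher (0.648% of all genes) and 0 lower (0.216%); the calls over all genes were 54 higher and 18 lower in place of 23 and 28, and the median of all genes moved to 0.55. Fold changes below are on total reads and are to be read against the median of 0.14.

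hspb9l, a small heat shock protein of fish, was the only member past the test for the ventricle window. It had 1.65, 6.39 and 1.39 reads per 10000 in the ventricle of hearts 1, 2 and 3 (450, 354 and 185 reads), against 0, 0 and 0.335 in the atrium (0, 0 and 15 reads). The chambers did not overlap in any heart, and the atrial 0s allow up to 0.0368 in heart 1 and 0.141 in heart 2. The log2 fold change was 5.99 (SE 1.59, higher in 3 of 3 hearts, limma adjusted p = 0.0296). The call was lost without any 1 of the 3 hearts, with log2 fold changes of 5.07 to 8.08 and adjusted p of 0.0955 to 0.999. Of all hspb9l reads, 92.4%, 94.7% and 89.8% of hearts 1, 2 and 3 fell in the ventricle window. In heart 1 they came from 13 sections, the first at section 13 and the last at section 25, so that the AV canal, which shares sections with the ventricle, held 1.05, 1.31 and 1.17 in the 3 hearts. Heart 3 rested on 4 sections, 1 of which held 70.9% of its reads. The first of the 4 lay at position 19 on the scale of heart 1. All ventricular hspb9l reads of heart 3 thus came from sections shared with the AV canal. Outside the shared sections, the 15 chamber reads of heart 3 were all atrial, so heart 3 did not show the chamber difference there. No hspb9l read was found in the outflow tract or the sinoatrial region of any heart.

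The other small heat shock proteins were less sharply placed. HSPB1, which guards actin filaments, had 13.003, 11.6 and 11.98 reads per 10000 in the ventricle and 3.24, 9.42 and 4.25 in the atrium of hearts 1, 2 and 3. The ranges did not overlap, but heart 2 differed little between chambers, and the log2 fold change of 1.52 (SE 0.43, higher in 3 of 3 hearts) missed the threshold with a limma adjusted p of 0.0550. It passed with TMM scaling, without the dominant row in the library sizes, and with either other filter on low counts. HSPB8, which works with the co-chaperone BAG3 in muscle, had 0.878, 2.60 and 2.19 in the ventricle and 0.0981, 2.25 and 0.224 in the atrium; heart 2 again had both chambers nearly alike. HSPB2 had at most 0.379 in any region of any heart and HSPB3 at most 0.516. The remaining rows, hspb9 and hspb11, held only a few reads.

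The barrel and the lid of the mitochondrial chaperonin were both higher in the ventricle window than in the atrium in each heart. In the RefSeq annotation of the GRCz12tu assembly hspd1 and hspe1 are neighbours on chromosome 9. HSPD1 had 1.56, 4.24 and 4.16 reads per 10000 in the ventricle, against 0.196, 0.375 and 0 in the atrium of hearts 1, 2 and 3. Its log2 fold change was 4.80 (SE 1.59, 3 of 3 hearts), with a limma adjusted p of 0.183, which misses the threshold. In heart 3 the chambers without the AV canal sections held no HSPD1 read. The ventricular HSPD1 reads of heart 3 thus all came from sections shared with the AV canal. HSPE1 had 5.21, 7.94 and 6.001 in the ventricle and 1.58, 2.53 and 5.39 in the atrium. Heart 3 showed HSPE1 in the atrium at nearly its ventricular level while HSPD1 had no atrial read there, which allows up to 0.0671. HSPA9, the mitochondrial HSP70, had 1.35, 1.89 and 1.87 in the ventricle and 0.233, 0.234 and 3.46 in the atrium, so that heart 3 went against hearts 1 and 2.

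The pair that folds myosin had higher levels in the ventricle window than in the atrium in each heart, but neither gene passed the test. In heart 3 the chambers without the AV canal sections held 32 UNC45B and 51 hsp90aa1.1 reads, all of them atrial. The ventricular reads of both genes in heart 3 thus came from sections shared with the AV canal. UNC45B, the myosin chaperone, had 0.988, 1.23 and 1.08 reads per 10000 in the ventricle and 0.319, 0 and 0.715 in the atrium, and the ranges did not overlap. hsp90aa1.1 had 0.900, 1.08 and 1.72 in the ventricle and 0, 0 and 1.14 in the atrium. In heart 1 hsp90aa1.1 also had 188 reads (1.13 per 10000) in the outflow tract, against 0 in hearts 2 and 3. The ventricle held 53.3%, 32.8% and 56.97% of the hsp90aa1.1 reads of hearts 1, 2 and 3, and in heart 3 the AV canal, at 2.149, lay above the ventricle. HSP90AA1, the row named for the human cytosolic HSP90 alpha, had reads in both chambers of heart 2 (0.126 in the ventricle and 1.73 in the atrium), 0.118 in the ventricle of heart 1 and none in either chamber of heart 3. The hsp90aa1.1 gene lies next to a close copy, hsp90aa1.2, so that reads may be shared between copies.

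HSP90AB1, the constitutive HSP90, differed little between the chambers. It had 26.2, 22.4 and 24.6 reads per 10000 in the ventricle and 20.5, 25.03 and 17.99 in the atrium, higher in 2 of 3 hearts. The log2 fold change was 0.33 (SE 0.16, limma adjusted p = 0.614), and it passed only with TMM scaling (0.65, adjusted p = 0.00781). HSPA8 had 13.9, 16.0 and 11.7 in the ventricle and 12.3, 14.5 and 13.9 in the atrium.

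Over all 60 tested members, the levels of the ventricle in 3 hearts all lay above those of the atrium for 7 (8.15% of all genes) and all below for 1 (2.86%). The 7 were hspb9l, HSPB1, HSPD1, UNC45B, dnajb6b, DNAJC1 and the HSPA4 row ENSDARG00000004754, and the 1 was TCP11L2. In heart 3 the ventricular reads of hspb9l, HSPD1, UNC45B and dnajb6b all lay in sections shared with the AV canal. DNAJC1, a J-domain protein of the endoplasmic reticulum, had 0.386, 0.397 and 0.622 reads per 10000 in the ventricle and 0.368, 0.234 and 0 in the atrium. In the atrial direction the 3 smallest p-values belonged to DNAJC10, DNAJC16 (ENSDARG00000059699) and hsp70.3, and none passed. DNAJC10, a reductase of the endoplasmic reticulum, had 0, 0.126 and 0 in the ventricle and 0.355, 0.375 and 0.0894 in the atrium (log2 fold change -4.45, SE 2.11, limma adjusted p = 0.585). DNAJC16 had 0.0294, 0 and 0 in the ventricle and 0.503, 0 and 0.0894 in the atrium (log2 fold change -3.45, SE 2.05, limma adjusted p = 0.756). hsp70.3, a heat-inducible HSP70, had 0.0404, 0 and 0 in the ventricle and 0.172, 1.36 and 0 in the atrium (log2 fold change -3.48, SE 2.10, limma adjusted p = 0.770).

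Markers of other cells moved between the chambers as well. The skin list (6 rows, krt8 and krt18a.1 lower at an adjusted p under 0.05) summed to 14.6, 15.7 and 14.4 reads per 10000 in the ventricle and 24.0, 63.5 and 34.2 in the atrium. Of these rows, epcam had 0 reads in the atrium of all 3 hearts. Neutrophil and macrophage rows (4) summed to 0.0477, 0 and 0.105 in the ventricle and 65.3, 33.9 and 0 in the atrium, with spi1 and lcp1 at 0 in the ventricle. Their part in the chamber differences was not tested.

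**Figure D2:**
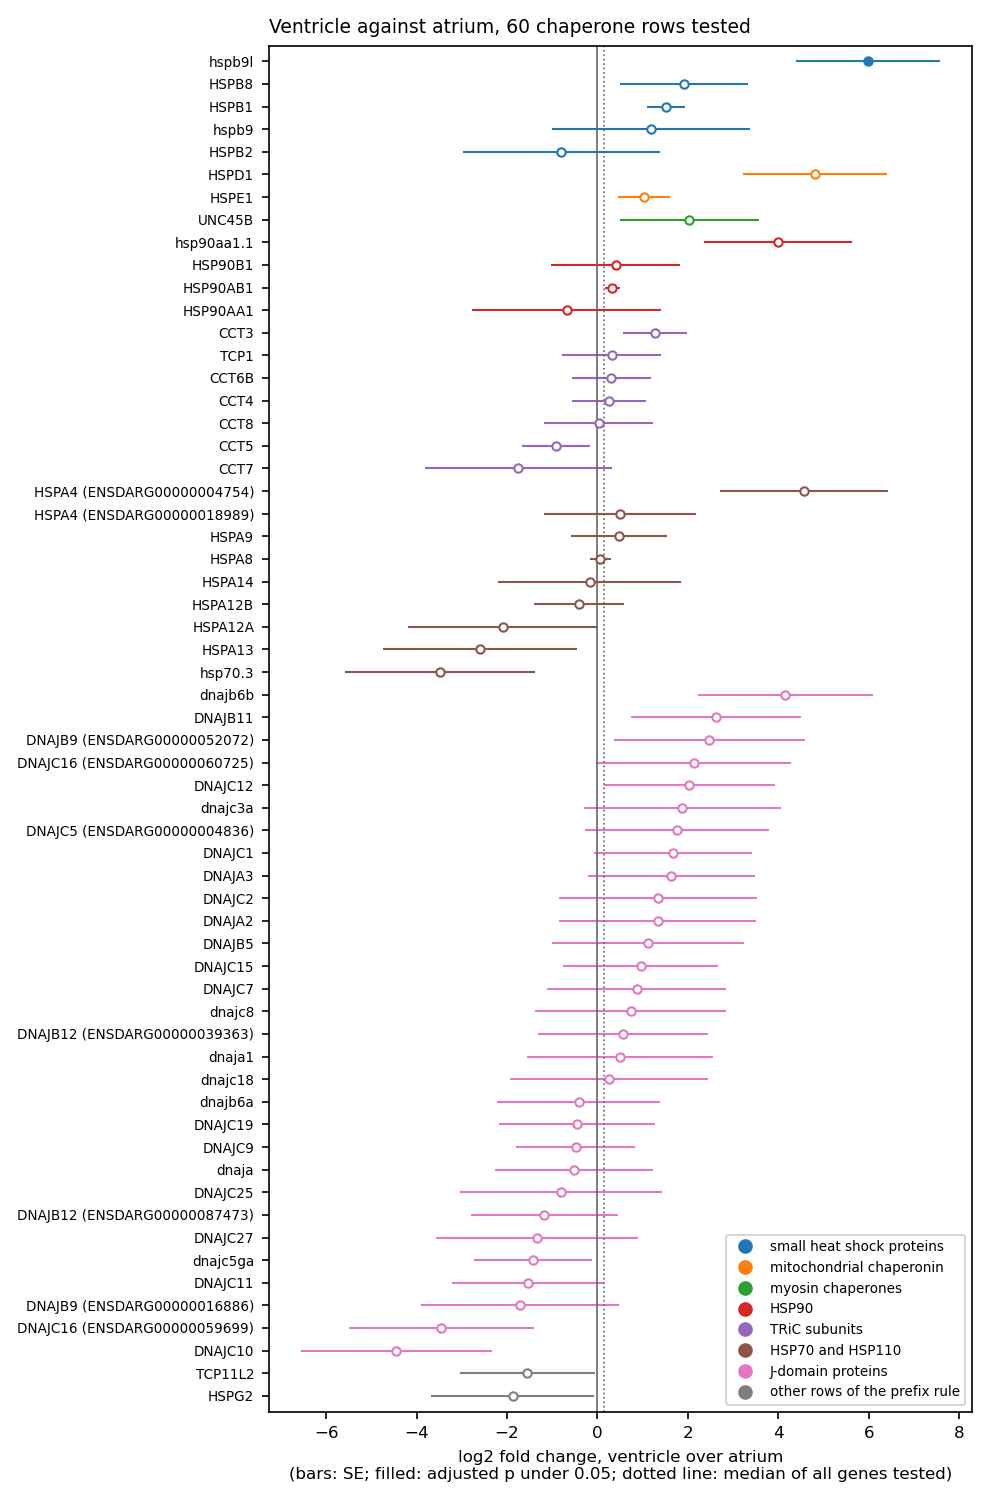
Log2 fold change of the ventricle over the atrium (x axis) for the 60 chaperone rows tested, by family (colours); bars are SE, the filled point passed an adjusted p of 0.05 and the dotted line is the median of all genes at 0.14. hspb9l at 5.99 is the only filled point, and all of HSPB1, HSPB8, HSPD1, HSPE1, UNC45B and hsp90aa1.1 lie right of the line without passing the test.

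**Figure D3:**
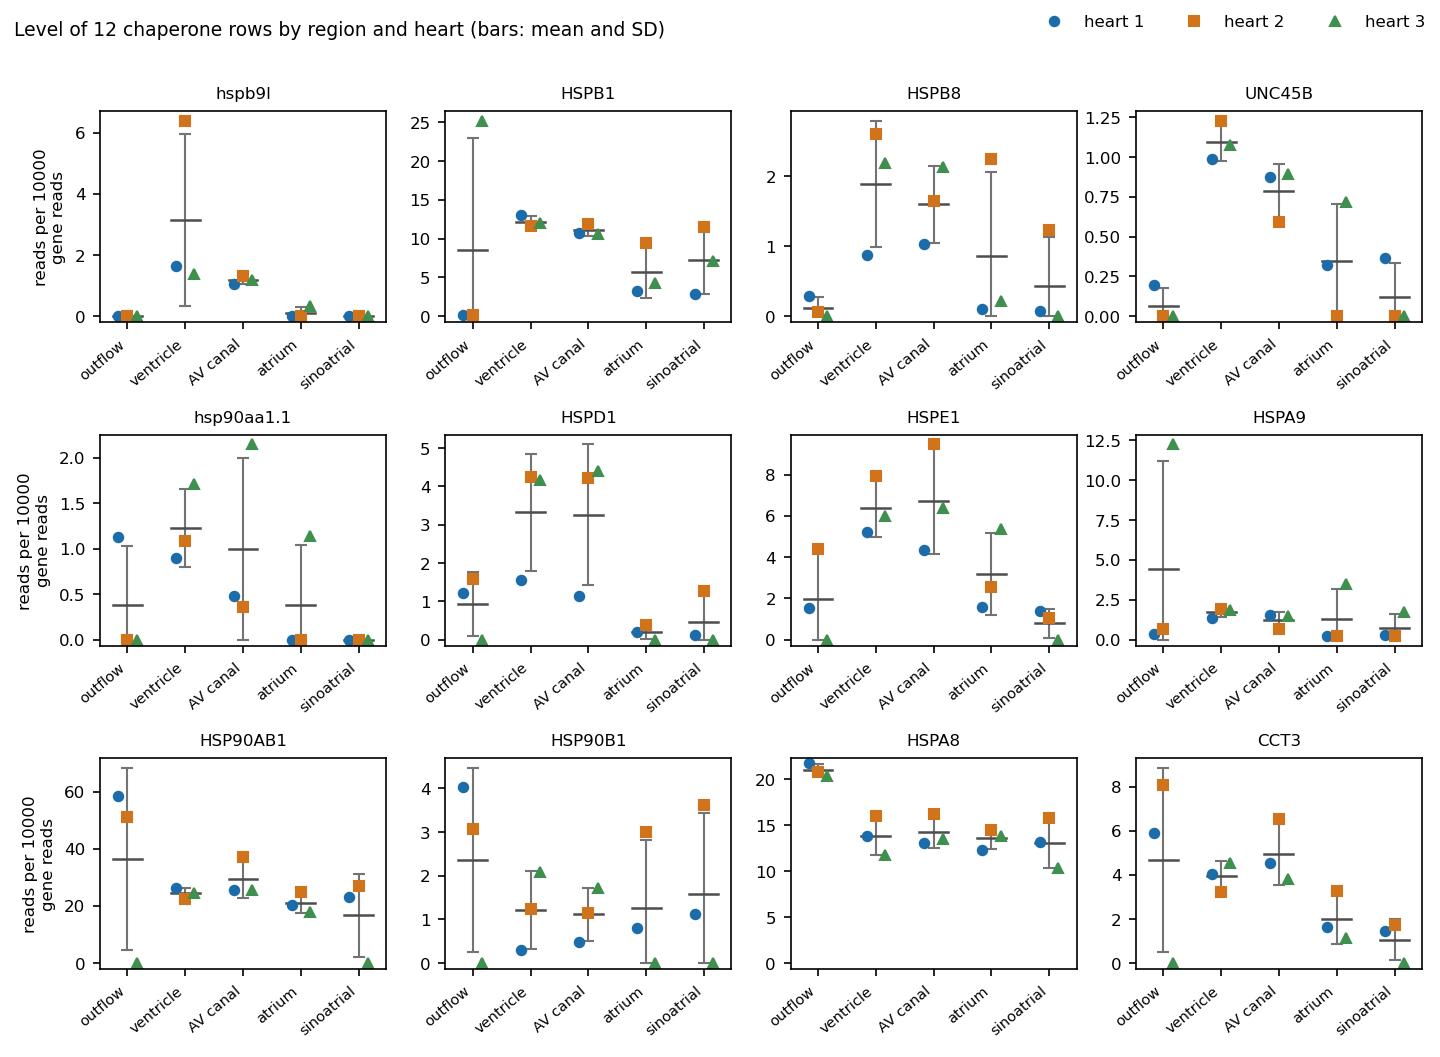
Level of 12 chaperone rows (y axis, reads per 10000 gene reads) in the 5 regions (x axis) of hearts 1 to 3; horizontal lines are means and bars 1 SD over 3 hearts, cut at 0. hspb9l has reads in the ventricle and AV canal and none in the outflow tract, HSPA8 stays between 10.3 and 21.7, and heart 3 stands apart in the outflow tract for HSPB1 (25.2), HSPA9 (12.2) and HSP90AB1 (0).

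The outflow tract against the rest of the heart asks which chaperones mark the arterial pole. The rest takes in sections of no named region, among them those between the outflow tract and ventricle windows. In heart 2 the rest held 2348148 reads. The ventricle of that heart held 554160, the AV canal 305324, the atrium 213385 and the sinoatrial region 292171. Levels of the rest of heart 2 therefore depend in large part on sections outside these regions. With 3 hearts, limma called 0 of 69 members tested and 0 of 11852 genes in either direction (0% each way). At an unadjusted p under 0.05, 1 member was higher (6.29% of all genes) and 3 were lower (2.69%). A limma fit with an intensity trend also called 0 members. The median log2 fold change was -0.0048 over the members and 0.52 over all genes; with TMM scaling the median of all genes was -0.21 and the calls were 1 gene higher and 18 lower. Without heart 3, whose outflow window is described above, 0 of 67 members were higher (0.0271% of all genes) and 2 were lower (0.597% of all genes), hspb9l and HSPB1.

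Small heat shock proteins were nearly absent from the outflow tract of hearts 1 and 2. HSPB1 stood at 0.174, 0.204 and 25.2 reads per 10000 in the outflow tract of the 3 hearts, while the rest of each heart stood at 10.8, 5.68 and 8.69. The value of heart 3 rests on 37 reads of 14700 (95% Wilson interval 18.3 to 34.7, counting error only). The log2 fold change was -4.19 (SE 1.25, lower in 2 of 3 hearts, limma adjusted p = 0.493) with 3 hearts and -5.31 (adjusted p = 2.11e-05) without heart 3. hspb9l had 0 reads in the outflow tract of each heart, against 1.16, 1.59 and 0.800 per 10000 in the rest. Over the 3 hearts pooled the rest was at least 178-fold higher than the limit set by 3 reads over the outflow group. Its log2 fold change was -6.81 (SE 2.00, lower in 3 of 3 hearts, limma adjusted p = 0.493), and -9.22 (adjusted p = 0.0151) without heart 3. HSPB8 had 0.288, 0.0656 and 0 in the outflow tract and 0.807, 0.992 and 1.55 in the rest (log2 fold change -2.77, SE 0.96, 3 of 3 hearts, limma adjusted p = 0.502). In heart 3 an outflow count of 0 allows up to 2.04 per 10000, above the rest for hspb9l (0.800) and HSPB8 (1.55). Heart 3 was thus too shallow to show a direction for either, and only hearts 1 and 2 carry it. Heart muscle genes moved with these, with 8 of 10 lower at an unadjusted p under 0.05, and their part was not tested.

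HSP90AB1 was high in the outflow tract of hearts 1 and 2. It had 58.5 and 50.96 reads per 10000 there and 0 in heart 3, against 25.4, 33.8 and 24.2 in the rest of the 3 hearts. In heart 2 the bin that starts at section 10 on the scale of heart 1 runs past the outflow window. That bin held 1398061 reads, with HSP90AB1 at 39.98, and its part beyond the window counts in the rest. In both deep hearts the outflow level lay above that of every other region, the nearest being the AV canal of heart 2 with 37.2. With heart 3 the log2 fold change was -0.77 (SE 1.62, higher in 2 of 3 hearts, limma adjusted p = 0.917), and without heart 3 it turned to 0.90 (adjusted p = 0.471); neither passed. HSP90B1, the HSP90 of the endoplasmic reticulum, had 4.04, 3.06 and 0 in the outflow tract and 0.298, 1.25 and 2.09 in the ventricle of hearts 1, 2 and 3. For HSP90B1 the rest stood at 0.388, 3.03 and 1.25, so that heart 2 hardly differed. In heart 2 its atrium, at 3.00, was close to the outflow tract, and its sinoatrial region, at 3.63, lay above it. HSPA8 had 21.7, 20.8 and 20.4 in the outflow tract, and its highest value in any other named region of any heart was 16.3. The rest of hearts 1, 2 and 3 stood at 13.4, 19.7 and 13.3, so that heart 2 differed little. In the heart 2 bin named above HSPA8 stood at 22.6. With the most-read row left out, the HSP70 and HSP110 rows summed to 35.6, 30.6 and 34.2 in the outflow tract. The ventricle then stood at 28.7, 29.96 and 19.7, nearly alike in heart 2. Of the TRiC subunits, CCT3 had 5.93 and 8.10 in the outflow tract of hearts 1 and 2 against 4.06 and 3.23 in the ventricle, and CCT4 had 3.28 and 5.43 against 1.31 and 5.29. CCT6B had 2.38, 3.75 and 31.3 in the outflow tract against 1.33, 1.93 and 1.74 in the ventricle, CCT5 had 1.60 and 2.79 in hearts 1 and 2 against 0.845 and 1.98, and TCP1 had 1.82 and 0.798 against 0.661 and 0.361. All 5 were higher in the outflow tract than in the ventricle in hearts 1 and 2, CCT4 of heart 2 by little. The share of all genes that lay this way was not counted. Of the 2 sparser subunits, CCT8 lay the same way, and CCT7 went the other way in heart 2 (0.0829 against 0.108). Against the rest of the heart, the median log2 fold change of the 7 TRiC rows was 0.34, below the 0.52 of all genes.

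Taking hearts 1 and 2 alone, the outflow levels all lay above those of the rest for 9 of 69 members (19.2% of all genes) and all below for 21 (17.3% of all genes). For heart 2 these counts depend on a rest with many reads from sections of no named region. The 9 were HSP90AB1, HSP90B1, HSPA8, CCT3, CCT8, the HSPA4 row ENSDARG00000018989, dnajc5ga, DNAJC25 and the DNAJB12 row ENSDARG00000087473. Among the 21 were HSPB1, HSPB2, HSPB3, HSPB8, hspb9l, UNC45B, HSPA9 and HSPA12B, which is known from endothelium. The 3 smallest p-values in the higher direction with 3 hearts belonged to DNAJC28, HSPA4 and DNAJC25. DNAJC28 had 0.0300, 0 and 28.6 reads per 10000 in the outflow tract and 0, 0 and 0.182 in the rest, so that the 42 outflow reads of heart 3 set its log2 fold change of 5.86 (SE 1.60, limma adjusted p = 0.493); it passed without heart 2 (adjusted p = 0.000116). HSPA4 (ENSDARG00000018989), an HSP110-type nucleotide exchange factor, had 1.37, 0.711 and 0 against 0.428, 0.136 and 0.248 (log2 fold change 1.92, SE 0.92, limma adjusted p = 0.580). DNAJC25 had 0.102, 0.307 and 0 against 0.0357, 0.0724 and 0.0349 (log2 fold change 1.98, SE 1.06, limma adjusted p = 0.610). Cartilage and mesenchyme genes (10 rows) summed to 25.0, 14.6 and 1.36 in the outflow tract and to 4.53, 9.33 and 5.36 in the ventricle, and neuron genes (6 rows) to 1.89, 9.61 and 0 against 0.386, 1.05 and 2.44; their part was not tested. Of the 6 neuron rows, 2 (STMN1 and a SNAP25 row) had 0 reads in the outflow tract of all 3 hearts.

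**Figure D4:**
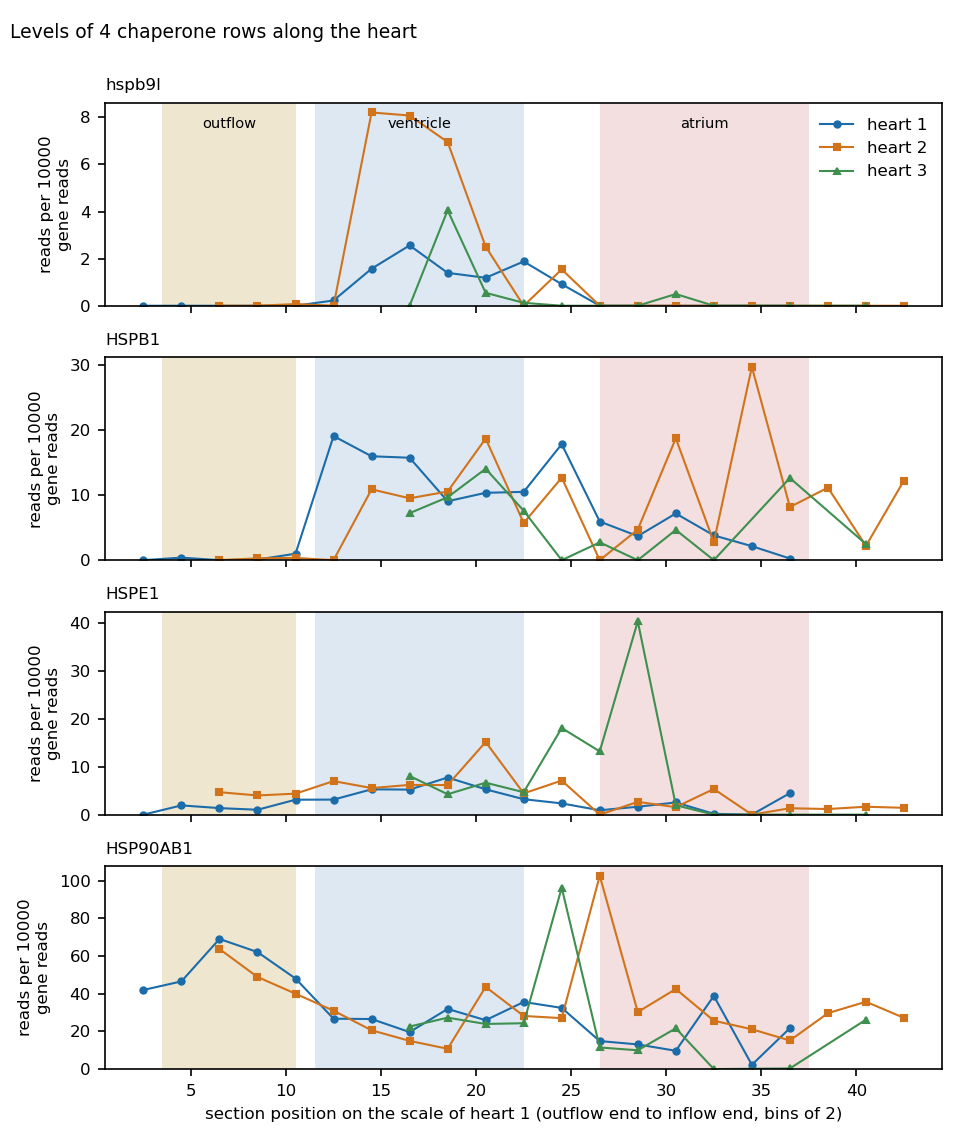
Levels of hspb9l, HSPB1, HSPE1 and HSP90AB1 (y axis, reads per 10000 gene reads) along the heart (x axis, position on the section scale of heart 1 in bins of 2 sections, bins with at least 10000 gene reads) in hearts 1 to 3; shading marks the outflow tract, ventricle and atrium. hspb9l begins inside the ventricle of heart 1 (section 13), and HSPB1 is near 0 in the outflow tract of both deeper hearts. HSP90AB1 is highest toward the outflow end in heart 1 only. Its highest plotted bins in hearts 2 and 3 start at positions 26 (102.5, of 14043 gene reads) and 24 (96.2, of 32114).

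The AV canal against the chambers (sections 12 to 18 and 27 to 37) asks whether any chaperone marks the canal. Limma called 0 of 63 members in either direction, against 0.0557% of 8977 genes in the higher direction and 0.167% in the lower. Before adjustment, 0 members had a p under 0.05 in the higher direction (2.13% of all genes) and 0 in the lower (2.93%), and the limma trend fit called 0 as well. The calls over all genes were 5 higher and 15 lower on total reads, 7 and 9 with TMM scaling, and 12 and 16 without the dominant row. The median log2 fold change was 0.06 over the members and -0.09 over all genes. HSP90AB1 had 25.6, 37.2 and 25.6 reads per 10000 in the canal and 25.3, 19.6 and 20.5 in the chambers, higher in 3 of 3 hearts (log2 fold change 0.11, SE 0.10, limma adjusted p = 0.999). HSPD1 had 1.14, 4.23 and 4.42 in the canal and 1.05, 1.95 and 0 in the chambers (log2 fold change 1.35, SE 0.94, limma adjusted p = 0.999). hspb9l had 1.05, 1.31 and 1.17 in the canal and 1.28, 5.09 and 0.223 in the chambers (log2 fold change -0.40, SE 0.75, limma adjusted p = 0.999). CCT5, a TRiC subunit, had 0.723, 1.64 and 1.46 in the canal and 0.968, 2.14 and 3.59 in the chambers, lower in 3 of 3 hearts (log2 fold change -0.84, SE 0.69, limma adjusted p = 0.999). The 3 smallest p-values belonged to DNAJC16 (ENSDARG00000060725), DNAJC5 (ENSDARG00000004836) and HSPD1 on the higher side and to HSPB2, DNAJC9 and CCT5 on the lower. These canal differences did not exceed the spread between hearts by this test.

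Comparing the sinoatrial region with all other sections asks what marks the inflow end, where the pacemaker cells sit. Limma called 0 of 69 members, against 0.11% of 11858 genes in the higher direction and 0.0337% in the lower. With p under 0.05 before adjustment, 1 member was higher (2.05% of all genes) and 7 were lower (2.72%). The limma trend fit called 7 members lower (8.94% of all genes) and 0 higher; its median over all genes was -1.91, against -0.09 in the weighted fit and -0.73 over the members. Sinoatrial levels of the 3 hearts all lay below those of the rest for 21 members (26.2% of all genes) and above for 0 (0.573%). Of the members with a p under 0.05, hsp70.3 was the one on the higher side, with 0.367, 0.479 and 0 reads per 10000 in the sinoatrial region and 0.01997, 0.0747 and 0 in the rest (log2 fold change 3.84, SE 1.59, higher in 2 of 3 hearts, limma adjusted p = 0.792). Its sinoatrial reads were 14 in each of hearts 1 and 2, and heart 3 had none anywhere. The atrium, which shares sections, held hsp70.3 at 0.172 in heart 1 (14 reads) and 1.36 in heart 2 (29 reads). In heart 2 the atrial level was thus the higher, and hsp70.3 was not particular to the sinoatrial region. DNAJC5 (ENSDARG00000042948) and HSPA13 followed by p-value on the higher side without passing before adjustment.

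On the lower side, hspb9l had 0 reads in the sinoatrial region of each heart, against 0.884, 0.755 and 0.813 per 10000 in the rest. The rest was at least 20.008-fold higher than 3 reads over the sinoatrial group allow (log2 fold change -4.91, SE 1.70, limma adjusted p = 0.485). hsp90aa1.1 also had 0 there, against 0.835, 0.370 and 1.59 in the rest, a difference of at least 19.6-fold (log2 fold change -4.87, SE 1.70, limma adjusted p = 0.513). These fold limits pool the 3 hearts and cover counting error only. Both rows also had 0 reads in the whole atrium of hearts 1 and 2, with 0.335 for hspb9l and 1.14 for hsp90aa1.1 in heart 3. Their absence was therefore not particular to the sinoatrial region. HSPA4 (ENSDARG00000018989) had 0 against 0.743, 0.481 and 0.253, at least 13.3-fold (log2 fold change -4.09, SE 1.75, limma adjusted p = 0.827). This HSPA4 row was also low in the atrium (0.355, 0 and 0.0894). The rest includes the outflow tract, where the row had 1.37 and 0.711 in hearts 1 and 2. In heart 3 a sinoatrial count of 0 allows up to 0.524, above the rest. HSP90AB1 had 23.1, 26.8 and 0.175 in the sinoatrial region and 35.7, 44.3 and 24.6 in the rest, lower in 3 of 3 hearts (log2 fold change -1.74, SE 0.78, limma adjusted p = 0.922). In heart 3 that is 1 read of 57203. Sections beyond the sinoatrial window at the inflow end count in the rest. In heart 3 the bin that starts at position 40 held 678 HSP90AB1 reads of 258666, a level of 26.2. The low value of heart 3 thus did not extend to all of its inflow end. The rest of the heart includes the outflow tract, where HSP90AB1 was highest in hearts 1 and 2; against the atrium, which shares sections, its sinoatrial level was close in these 2 hearts (20.5 and 25.03 in the atrium). The skin list summed to 31.7, 132 and 134 in the sinoatrial region, against 24.0, 63.5 and 34.2 in the atrium, and its part was not tested. Of the 6 skin rows, 3 (epcam, cldni and krt5) had 0 reads in the sinoatrial region of all 3 hearts, so the sum came from the others.

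The remaining members were sparse. Among the J-domain rows, the 5 with the most reads were dnajc8, DNAJC9, dnajc5ga, DNAJC1 and DNAJB11. dnajc8, a splicing-associated protein, had 1.04 reads per 10000 in the ventricle of heart 1 and 0 in that of hearts 2 and 3. DNAJC9, a histone chaperone, had 0.466, 0.397 and 0.397 in the ventricle and 0.453, 0.890 and 0.738 in the atrium. dnajc5ga, of the cysteine string protein type, had 0.0845, 0.307 and 0.674 in the ventricle and 0.0613, 0.281 and 2.73 in the atrium. DNAJB11, a partner of the HSP70 of the endoplasmic reticulum, had 0.0808, 1.21 and 0.217 in the ventricle and 0.147, 0 and 0 in the atrium. HSPA12B had 0.720, 0.884 and 1.03 in the ventricle and 1.09, 0.890 and 1.23 in the atrium. HSPA14, linked to the ribosome, had 0.360, 0.144 and 0 in the ventricle and 0.0245, 1.17 and 0 in the atrium. HSPG2, the perlecan row, had 0.143, 0 and 0.307 in the ventricle and 0.123, 1.31 and 0.514 in the atrium.

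Genes that work beside the chaperones, and a set of immediate early genes, were read from 5 lists. In the ventricle against the atrium, 0 of 16 tested cytosolic co-chaperones, 0 of 15 endoplasmic reticulum folding genes, 0 of 10 mitochondrial folding and import genes, 0 of 7 prefoldin and chaperonin helpers and 0 of 9 immediate early genes passed an adjusted p of 0.05 in either direction. Their median log2 fold changes were -0.56, -0.54, 0.73, 0.75 and -1.004, against 0.14 over all genes. The mitochondrial list summed to 4.59, 6.95 and 9.19 reads per 10000 in the ventricle and 2.77, 4.83 and 7.38 in the atrium, higher in each heart. The endoplasmic reticulum list summed to 7.97, 12.7 and 9.70 in the ventricle and 9.43, 17.9 and 19.6 in the atrium, lower in each heart. The immediate early genes, which respond to handling of tissue, summed to 4.71, 3.41 and 4.71 in the ventricle and 4.67, 5.90 and 9.10 in the atrium. In the outflow tract, the AV canal and the sinoatrial region none of the 5 lists had a gene past the threshold in limma.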

How the data were processed

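CEL-seq libraries of each section were made and sequenced by the authors (Illumina, paired end), and reads were mapped to the zebrafish build Zv9, with BWA 0.6.2 among the tools in the submitters' processing notes. The authors deposited other whole-number values, raw read counts per gene and section with no normalization, 1 table per heart. Use of molecular identifiers is not stated, so reads may not be independent molecules and intervals cover counting error only. 56, 48 and 67 of the 96 columns lie outside the tissue of hearts 1, 2 and 3 and were not used; the labels call sections 17 to 24 of heart 1 inverted, and these were turned round. Spike-ins were left out. Hearts 2 and 3 were placed on heart 1 by a line through the level-weighted median sections of vmhc and myh6 (16 and 30, 83 and 65, 31 and 21). The plan named read-weighted medians for this placing. Symbols come from a gene name table, and neighbouring genes from the gene order in the RefSeq annotation of GRCz12tu. No sequence was used, and no coordinate entered a level or a test.

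Reads were summed per region and heart. The test was limma 3.58.1 (R 4.3.3) with voom precision weights on log2 reads scaled to the total gene reads of each sum (0.5 reads added), the heart as a block since both regions come from the same animal, and Benjamini-Hochberg adjustment over all genes with at least 10 reads and reads in at least 2 hearts. Deviations of the 2 sums of a heart correlated between -0.089 and 0.071. The plan named count models (a quasi-likelihood test with TMM factors, and a second tool as an alternative); neither was run, because the automatic unit check could not read these tables as counts. Several limma fits and scalings were tried on the real tables, with call counts and the members' p-values in view, and on simulated counts, before this one was kept, so the test and scaling were chosen after results were seen. TMM factors reached 3.94 for the outflow sum of heart 3. The fit was tested on simulated data. The members and lists were chosen with earlier results of these data known. Named genes are hspb9l, HSP90AB1, the 5 members with most reads per family, those past the threshold, and the 3 smallest p-values per direction and comparison. Tests are printed for the last 2 kinds, hspb9l and HSP90AB1 only; the members whose regions did not overlap are named after their values were seen. Figures were drawn with matplotlib. Columns of the authors' own comparisons were not used.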

Additional observations from a re-analysis of the deposited data

How the results depend on the processing

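Of 56 counts of members past the threshold recomputed under alternatives, 38 stayed within 1.5 times of the reported count. Most of these 38 are a 0 that stayed 0, since the outflow tract, AV canal and sinoatrial region had a reported count of 0. The only reported count above 0, that of the ventricle against the atrium, moved under most alternatives. For the ventricle against the atrium, 1 member passed as reported; 3 passed with TMM scaling and with no filter beyond 1 read, 2 without the dominant row (38% of the reads of heart 1), 8 with the sections of heart 1 as samples (6 of them lower in the ventricle), and 0 in the limma trend fit, with ventricle sections 12 to 18 against atrium sections 27 to 32, with the windows of hearts 2 and 3 moved toward the outflow end, with hearts placed by raw reads, and in the fit with no replicate block. Leaving out each heart gave 0 in each case. With at least 50 reads the count was 1, but the member was HSPB1 (adjusted p = 0.0422) and hspb9l missed. The fit with no replicate block gave 0 members in the other comparisons too. For the outflow tract, reported as 0, TMM scaling gave 1 (hspb9l), the sections of heart 1 gave 2 (HSP90AB1 and HSPB1), and leaving out each heart gave 0 to 2. For the sinoatrial region, reported as 0, the limma trend fit gave 7 and the sections of heart 1 gave 4; no alternative gave a member for the AV canal. Sections of 1 animal are not replicates. As alternatives, TMM scaling and placing by raw reads were added after seeing the data, and the planned second count model was not run. The plan itself had TMM factors in its count model and read-weighted median sections for the placing. Total reads and level-weighted medians, used for the reported results, depart from it.

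Of 386 recomputed fold changes, 23 turned sign; the cause was not tested. With hearts placed by raw reads, log2 fold changes in the outflow tract became 2.40 for hspb9l, 1.15 for HSPB1, 3.56 for HSPB8 and 1.09 for HSP90AB1, beside a median of 6.65 over all genes; in the AV canal they became -0.54 for DNAJC16 (ENSDARG00000060725), 0.18 for HSPB2, -0.28 for HSP90AB1 and 1.105 for hspb9l. With the sections of heart 1 as samples they became -0.82 for DNAJC25 and 1.496 for HSP90AB1 in the outflow tract, -0.52 for DNAJC16, -0.57 for DNAJC5 (ENSDARG00000004836) and 1.31 for hspb9l in the AV canal, and 0.48 for hspb9l, 0.89 for hsp90aa1.1 and 0.83 for HSPA4 (ENSDARG00000018989) in the sinoatrial region. The trend fit gave -0.24 for HSPA4 in the outflow tract and 0.036 for hspb9l in the AV canal. Leaving out each heart moved HSP90AB1 in the outflow tract over -2.29 to 0.90 and hspb9l in the AV canal over -0.80 to 0.10. In the AV canal hspb9l became 0.41 with the windows moved toward the outflow end and 0.98 against all other sections, where HSP90AB1 became -0.44. Without the dominant row the members' summed levels were 1.05 to 1.76 times as high. Depth limits the outflow and sinoatrial windows of heart 3, where 0 reads allow levels of up to 2.04 and 0.524 per 10000.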

Other observations

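2 further rows carry no symbol in the name table but have heart 1 profiles identical to chaperone genes in the study's own table. The hspb7 row (ENSDARG00000011538), a small heat shock protein of heart muscle, had 8.29, 17.1 and 17.6 reads per 10000 in the ventricle of hearts 1, 2 and 3, and 3.90, 5.72 and 8.25 in the atrium. The chambers did not overlap, which held in this direction for 8.15% of the 8329 genes tested. The lowest ventricular level (8.29, heart 1) was close to the highest atrial level (8.25, heart 3). In the outflow tract it had 0.132 in heart 1, 0.0207 in heart 2 and 55.8 in heart 3, where 82 reads came from a window of 14700, the same split between hearts as HSPB1. The hspa5 row (ENSDARG00000004665), the HSP70 of the endoplasmic reticulum known as BiP, had 0.981, 5.65 and 1.13 in the ventricle and 2.49, 7.97 and 0.0671 in the atrium, lower in the ventricle in hearts 1 and 2 and higher in heart 3. These rows entered no count of members.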
